A study of Mus with 4 samples.

Results

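The 9 genes described here belong to the red blood cell lineage and were followed in sorted kidney cells. They are the adult globins *Hba-a1* and *Hbb-bt*, the embryonic globins *Hba-x*, *Hbb-y* and *Hbb-bh1*, the heme synthesis gene *Alas2*, the membrane gene *Slc4a1* and the erythroid transcription factors *Gata1* and *Klf1*. The set takes in every probe on the array whose identifier matched one of these symbols, which gave 13 probes of 41174 and 9 genes of 16358 with a symbol. *Hbb-bt* had 4 probes, *Hbb-bh1* had 2 and each other gene had 1. The genes were chosen by their lineage and selected on log2 *Mut*/*WT* ratios and channel levels from these same 4 arrays, so those values are given as a description, with no *P* value, and calls of these genes are counted only beside the share called over all probes.

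The study asked which transcripts differ when the prorenin receptor (PRR, gene *Atp6ap2*) is deleted from *Six2*-positive nephron progenitors, the cap mesenchyme cells that form the nephron. *Mut* animals were Six2Cre+/PRR flox/flox and *WT* animals were their Six2Cre+/PRR+/+ littermates, so both genotypes carried the *Six2GFPCre* TGC transgene, whose promoter restricts Cre and GFP to nephron progenitors, and the controls had no floxed allele. GFP+ cells were sorted by FACS at embryonic day 15.5 and combined into 3 pools of kidneys per genotype. Arrays 1 to 3 each held a *Mut* pool in Cy3 (green) and the *WT* pool of the same number in Cy5 (red), while array 4 compared *WT* pool 2, in Cy3, with *WT* pool 1, in Cy5. Genotype and dye therefore coincided on arrays 1 to 3 and cannot be told apart there. All 4 arrays lay on 1 slide. Which dye held which pool comes from the labels, which nothing else in the arrays checks.

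Hemoglobin is a tetramer of alpha-like and beta-like globin chains, each holding a heme. In the mouse embryo the first red cells, made in the yolk sac, use the embryonic chains zeta (*Hba-x*), epsilon-y (*Hbb-y*) and beta-h1 (*Hbb-bh1*), and the red cells later made in the fetal liver use the adult chains. Globin, heme synthesis and red cell membrane genes are switched on together by GATA1 and KLF1, and none of them marks nephron progenitors, though *Slc4a1* is also used by acid-secreting cells of the collecting duct. In the RefSeq gene order *Hba-x* lies next to *Hba-a1*. *Hbb-bt*, *Hbb-bs*, *Hbb-bh2*, *Hbb-bh1* and *Hbb-y* follow each other in the beta-globin cluster, with pseudogenes between *Hbb-bs* and *Hbb-bh2*. *Hba-a1* and *Hba-a2*, and *Hbb-bt* and *Hbb-bs*, are nearly identical copies, so a probe named here for the first of either pair may also have taken up the RNA of the second.

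Signals were low on this platform. The median signal was 65.5 to 82 in Cy3 and 84 to 92 in Cy5 against a background of 16 or 17 and 50, and Agilent's software marked 45.1 to 51.1% of probes in Cy3 and 54.1 to 58.3% in Cy5 as well above background. Of 11 nephron progenitor markers 10, *Six2* and *Cited1* among them, were well above background in all 6 channels of arrays 1 to 3, as were 9 of 10 stroma markers, so these RNAs were present together. The deleted gene, *Atp6ap2*, had log2 *Mut*/*WT* ratios of -0.08, -0.19 and -0.25 on arrays 1, 2 and 3, with a mean of -0.17 (SE 0.055, limma adjusted *P* = 0.0351). Its Cy3/Cy5 ratio between the pair of *WT* pools on array 4 was -0.19. The level of *Atp6ap2* thus did not separate the genotypes beyond a *WT* vs *WT* difference. Whether its probe lies in the deleted part of the gene was not determined, so the direction of each ratio rests on the labels.

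The *WT* channels of array 4 stood apart from the *WT* channels of arrays 1 to 3, and this touches the results below. Whether its labels name the pools and dyes rightly was not tested, and each value of array 4 rests on them. Over all probes, 398 (0.967%) differed by more than 1.5-fold between *WT* pool 1 on array 4 and the same pool in the same dye on array 1, and 185 (0.449%) were higher by that much on array 4. Of the 227 probes called higher in *Mut*, 132 (58.1%) had a level of *WT* pool 1 on array 4 that lay closer to the mean of the *Mut* pools than to that of the *WT* pools on arrays 1 to 3, and of the 600 called lower it was 167 (27.8%). Among the 13 probes described here it was 9, dim probes of *Hba-x* and *Hbb-bh1* included. The share over all probes was not computed, so nothing is read from that count.

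The adult globins had higher signals in *Mut* than in *WT* on all of arrays 1 to 3, at all 5 of their probes, by 2.08- to 2.39-fold on average. *Hba-a1* encodes the adult alpha chain and *Hbb-bt* an adult beta chain. Levels below are normalized log2 signals, which compare the samples for 1 probe and not the probes with each other. At *Hba-a1* (probe A_52_P278538) they were 11.63, 11.59 and 11.54 in *Mut* pools 1 to 3, 10.34, 10.44 and 10.48 in *WT* pools 1 to 3, and 11.79 for *WT* pool 1 and 11.56 for *WT* pool 2 on array 4. The *Mut* and *WT* levels of arrays 1 to 3 did not overlap, while both *WT* levels of array 4 lay beside the *Mut* levels. The log2 *Mut*/*WT* ratios on arrays 1, 2 and 3 were 1.29, 1.15 and 1.06 (mean 1.17, SD 0.116, n = 3), which is 2.24-fold. The ratio of *WT* pool 2 to *WT* pool 1 on array 4 was -0.22.

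*Hbb-bt* was likewise lowest in the *WT* channels of arrays 1 to 3. At its brightest probe (A_51_P374476) the levels were 12.61, 12.62 and 12.53 in *Mut*, 11.33, 11.34 and 11.32 in *WT* on arrays 1 to 3, and 12.33 for *WT* pool 1 and 12.51 for *WT* pool 2 on array 4. The *WT* levels of arrays 1 to 3 differed among themselves by an SD of 0.0084, and all of them lay below both *WT* levels of array 4, which in turn lay below all *Mut* levels. The log2 ratios were 1.27, 1.29 and 1.21 (mean 1.26, SD 0.043, n = 3), or 2.39-fold, and the *WT* vs *WT* ratio was 0.19. The other 3 probes had mean log2 ratios of 1.10, 1.06 and 1.23 with *WT* vs *WT* ratios of 0.03, 0.19 and 0.10. On single arrays the 5 adult globin probes ranged from 1.02 to 1.34.

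The linear signals after subtraction of the local background show what the normalization acted on. At *Hba-a1* they were 2038, 1940 and 1862.5 in *Mut* (Cy3) and 1702.5, 1797 and 2383 in *WT* (Cy5) on arrays 1 to 3, and 4973 for *WT* pool 1 (Cy5) and 2599 for *WT* pool 2 (Cy3) on array 4. Before the dyes were balanced, the Cy3 signal of *Mut* was therefore above the Cy5 signal of *WT* on arrays 1 and 2 and below it on array 3. A log2 ratio above 1 was reached after loess, which centres the ratios of probes of like brightness. With each array centred on its median instead, the mean log2 ratio was 0.54 at *Hba-a1* and 0.60 at *Hbb-bt*, higher in *Mut* still but reduced by more than 1.5 times. The log ratios deposited with the scans, dye-normalized by Agilent's program, gave means of 1.26 at *Hba-a1* and 1.26 at *Hbb-bt*.

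**Figure D1:**
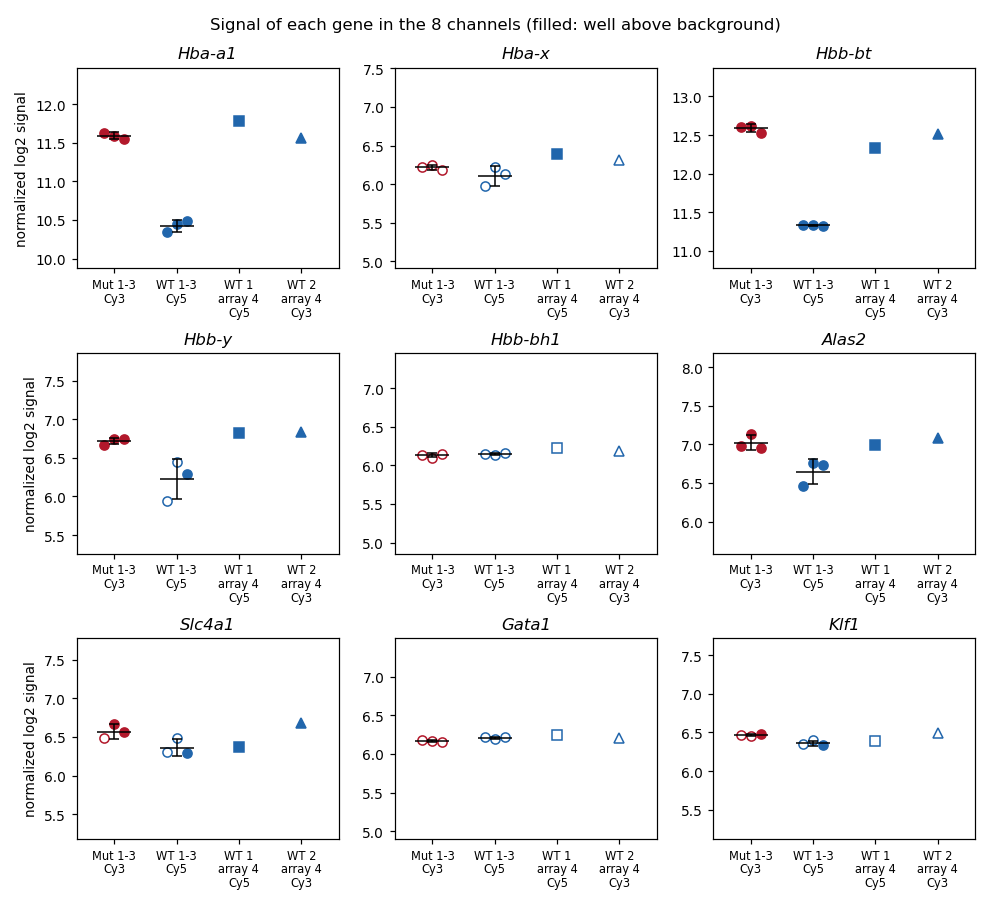
Normalized log2 signal of each gene (vertical axis; each panel spans the same number of log2 units) in *Mut* pools 1 to 3 (red circles, Cy3), *WT* pools 1 to 3 (blue circles, Cy5) and the *WT* channels of array 4 (square, pool 1 in Cy5; triangle, pool 2 in Cy3), with mean and SD of each 3 pools as bars and filled symbols where the spot was well above background. For *Hba-a1* and *Hbb-bt* the *WT* circles lie about 1 log2 unit below all other symbols, and *Hbb-bh1* and *Gata1* are flat and open throughout.

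The same *WT* pool in the same dye gave different adult globin signals on different arrays. *WT* pool 1 in Cy5 was at 10.34 on array 1 and at 11.79 on array 4 for *Hba-a1*, a difference of 1.44 or 2.72-fold. For the 4 *Hbb-bt* probes that difference was 0.83 to 1.27, or 1.78- to 2.41-fold. On the background-subtracted linear scale, without normalization, it was 2.92-fold for *Hba-a1* and 1.88- to 2.53-fold for *Hbb-bt*, against a median of 1.02 over 21890 probes well above background on both arrays. Between these hybridizations of 1 *WT* pool the adult globin probes thus differed by 0.83 to 1.44 on the log2 scale, where the *Mut* and *WT* means differed by 1.06 to 1.26.

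All 5 adult globin probes passed an increase of more than 1.5-fold between array 1 and array 4 in *WT* pool 1, as did the *Hbb-y* probe, where 0.449% of all probes did. A change of more than 2-fold was seen at 3 of the 13 probes and at 0.0267% of all probes. *WT* pool 2, which can be compared only across dyes, was also higher on array 4 than on array 2 at *Hba-a1*, by 1.12, and 0.343% of all probes were higher by more than 1.5-fold in that comparison. When *Mut* pools in Cy3 were set against *WT* pool 2 in the same dye on array 4, the mean difference was 0.03 for *Hba-a1* and 0.07 for *Hbb-bt*, and lay between -0.11 and 0.08 over all 13 probes. This comparison runs between arrays, rests on 1 *WT* channel, was added after the data were seen and has no test. Over all probes it exceeded 1.5-fold at 0.408%. With dye fitted probe by probe, using array 4, the log2 *Mut*/*WT* ratio was 1.39 at *Hba-a1* and 1.07 at *Hbb-bt*.

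**Figure D2:**
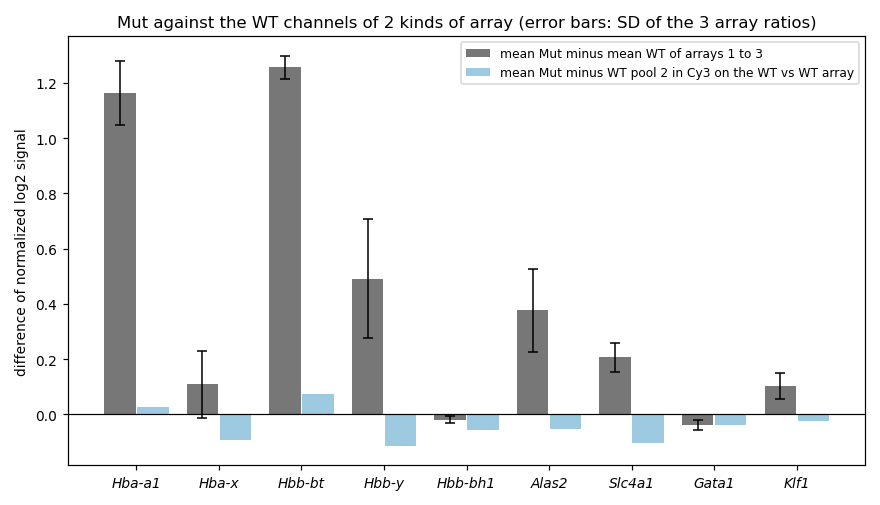
Difference of normalized log2 signal (vertical axis) for each gene between the mean of the *Mut* pools and the mean of the *WT* pools of arrays 1 to 3 (grey bars, with the SD of the 3 array ratios) and between the mean of the *Mut* pools and *WT* pool 2 in the same dye on array 4 (blue bars, 1 channel, no error). *Hba-a1* and *Hbb-bt* fall from 1.17 and 1.26 to 0.03 and 0.07, and all blue bars lie between -0.11 and 0.07.

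With the study's thresholds (limma adjusted *P* under 0.05 and over 1.5-fold), 2 of the 9 genes, *Hba-a1* and *Hbb-bt*, and 5 of the 13 probes were called, all higher in *Mut*. Of 41166 probes tested, 2.01% were called in either direction and 0.551% higher. Only 13 probes (0.0316%) were over 2-fold higher, and 5 of these were the adult globin probes. Since the genes were chosen with these ratios known, nothing is read from the counts. The call of both genes was lost with median centring, with a normexp offset of 0 and with the adjusted *t*-test of the methods, settings under which no probe of the array was called.

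The embryonic globins were dim and did not move together. *Hbb-y*, the epsilon-y chain, had levels of 6.67, 6.74 and 6.74 in *Mut*, 5.94, 6.45 and 6.29 in *WT* on arrays 1 to 3, and 6.83 in both *WT* channels of array 4. It was well above background in all 3 *Mut* channels, in 1 of 3 *WT* channels and in both channels of array 4, and the *Mut* and *WT* levels of arrays 1 to 3 did not overlap. The log2 ratios were 0.72, 0.30 and 0.45 (mean 0.49, SD 0.216, n = 3), with 0.0037 on the *WT* vs *WT* array. As with the adult chains, *WT* pool 1 was higher on array 4 than on array 1, by 0.88.

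The size of the *Hbb-y* ratio depends on how the background is handled, because its background-subtracted *WT* signals were 3, 21 and 28.5 on arrays 1 to 3, against 62, 66 and 71 in *Mut*. The mean log2 ratio was 1.47 with an offset of 0, 0.86 with an offset of 16 and 2.45 in the log ratios deposited with the scans. Its direction was kept in 12 of 12 other ways of processing arrays 1 to 3, some of which left its ratio unchanged by construction. Against *WT* pool 2 in the same dye on array 4 the ratio turned to -0.11.

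*Hba-x*, the zeta chain, had levels of 6.22, 6.25 and 6.18 in *Mut* and 5.97, 6.22 and 6.14 in *WT* on arrays 1 to 3, and these overlapped. The *WT* levels of array 4 were 6.39 and 6.31, above all others. Its mean log2 ratio was 0.11 (SD 0.121, n = 3), and the spot was well above background only for *WT* pool 1 on array 4. *Hbb-bh1*, the beta-h1 chain, was well above background in no channel at either of its 2 probes. Its levels lay between 6.07 and 6.23 in all 8 channels at both, and the mean log2 ratios were -0.02 and -0.09, so that no difference was detectable for it.

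**Figure D3:**
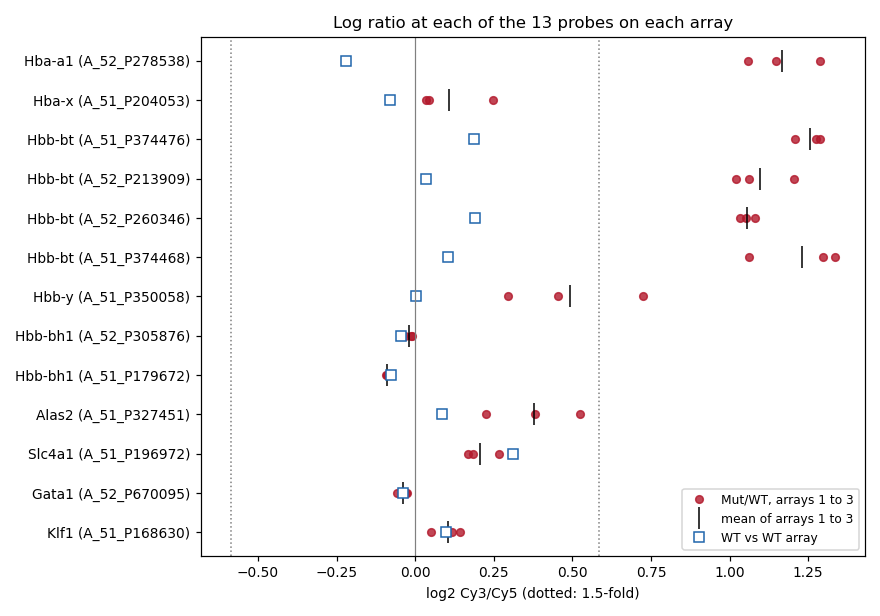
Log2 Cy3/Cy5 ratio (horizontal axis) at each of the 13 probes (vertical axis) on arrays 1 to 3, where it is *Mut*/*WT* (red points, with the mean as a bar), and on the *WT* vs *WT* array (blue squares); dotted lines mark a 1.5-fold change. The 5 adult globin probes lie above 1 on every *Mut*/*WT* array, *Hbb-y* and *Alas2* lie between 0.23 and 0.72, and the *WT* vs *WT* squares stay between -0.22 and 0.31.

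Of the genes outside the globins, *Alas2*, which makes the erythroid form of the rate-limiting enzyme of heme synthesis, was well above background in all 8 channels. Its levels were 6.98, 7.14 and 6.95 in *Mut*, 6.45, 6.76 and 6.73 in *WT* on arrays 1 to 3, and 6.99 and 7.08 for *WT* pools 1 and 2 on array 4. The groups of arrays 1 to 3 did not overlap, and the *WT* levels of array 4 were again among the *Mut* levels. The log2 ratios were 0.52, 0.38 and 0.23 (mean 0.38, SD 0.150, n = 3), or 1.30-fold, which is under the fold minimum, with 0.08 on the *WT* vs *WT* array.

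*Slc4a1* encodes band 3, the anion exchanger of the red cell membrane. Its levels were 6.48, 6.67 and 6.56 in *Mut*, 6.31, 6.48 and 6.30 in *WT* on arrays 1 to 3, and 6.36 and 6.68 for *WT* pools 1 and 2 on array 4. The *Mut* and *WT* levels overlapped, and on array 4 the Cy3 channel was the brighter although both held *WT* RNA. Its mean log2 *Mut*/*WT* ratio of 0.21 (SD 0.052, n = 3) was smaller than the *WT* vs *WT* ratio of 0.31. It was well above background in 2 of 3 *Mut* and 1 of 3 *WT* channels. With dye fitted probe by probe, using array 4, its ratio turned to -0.10.

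The factors that drive globin transcription showed little. *Gata1*, the master factor of the erythroid and megakaryocyte lineages, was measured in up to 10 spots per array and was well above background in none of the 8 channels. Its levels were 6.19, 6.17 and 6.16 in *Mut* and 6.21, 6.19 and 6.22 in *WT*, with a mean log2 ratio of -0.04. All *Mut* levels lay below all *WT* levels. The *WT* vs *WT* ratio was -0.04 as well. *Klf1*, which binds the beta-globin promoter, had levels of 6.46, 6.45 and 6.48 in *Mut* and 6.35, 6.40 and 6.34 in *WT*. Its mean log2 ratio of 0.10 (SD 0.048, n = 3) matched the *WT* vs *WT* ratio of 0.10, and it was well above background in 1 of 3 channels of each genotype.

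Among the 9 genes, 7 had a higher mean and 2 (*Hbb-bh1* and *Gata1*) a lower mean in *Mut*, and the median log2 ratio was 0.21, against -0.00092 over all probes. The *Mut* and *WT* levels of arrays 1 to 3 did not overlap for 6 genes and for 10 of 13 probes, where 38% of all probes did not overlap, and all *Mut* levels were above all *WT* levels at 8 of 13 probes and at 17.5% of all probes. In 3 genes (*Hba-a1*, *Hbb-bt*, *Alas2*) every channel was well above background, and in 2 (*Hbb-bh1*, *Gata1*) none was. In bulk RNA of this kind, more or fewer red cells among the sorted cells and more or less RNA per cell cannot be told apart.

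**Figure D4:**
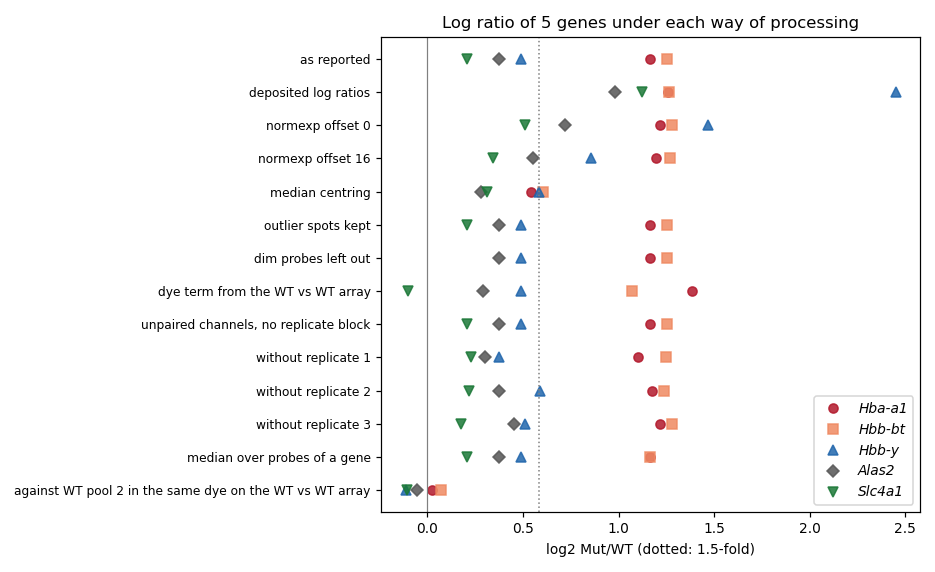
Mean log2 *Mut*/*WT* ratio (horizontal axis) of *Hba-a1*, *Hbb-bt*, *Hbb-y*, *Alas2* and *Slc4a1* under each way of processing (vertical axis), with a dotted line at 1.5-fold. *Hba-a1* and *Hbb-bt* stay at 0.54 or more in every setting except the comparison with *WT* pool 2 in the same dye, where all 5 genes lie between -0.11 and 0.07.

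To see what the rest of the red cell program did, 100 further gene symbols in 5 lists were followed, of which 88 were measured. At its brightest probe a single gene of the 88 (1.14%) was called, *Ftl1*, and it was lower in *Mut*, where 2.01% of all probes were called. At a further probe *Slc25a39* was called lower too. With an adjusted *P* under 0.05 and no fold minimum, 28 of 88 passed, 9 higher and 19 lower in *Mut*, where 29.6% of all probes passed. At an unadjusted *P* under 0.05, 39 of 88 passed and 40.6% of all probes did. The median log2 ratio over the 88 was -0.02. The measured genes were well above background in all 6 channels of arrays 1 to 3 for 46 genes, and 24 genes were so in none of the 8 channels at any probe. *WT* pool 1 was higher by more than 1.5-fold on array 4 than on array 1 in 1 of the 88, *Cygb*.

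Of the other globins 5 of 11 listed symbols were measured, and none was called by limma (1 had an unadjusted *P* under 0.05). *Hbq1a*, *Hbq1b* (theta globins of the alpha cluster) and *Mb* (myoglobin of muscle) were well above background in none of the 8 channels. *Cygb*, a globin of fibroblast-like cells and not of red cells, had log2 *Mut*/*WT* ratios of 0.51, 0.31 and 0.17 with a mean of 0.33 (limma adjusted *P* = 0.0029), and was at 0.50 with the dye term (limma adjusted *P* = 0.111). Its level in *WT* pool 1 was 6.85 on array 1 and 7.46 on array 4, a shift of 0.61.

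In the list of heme synthesis and iron genes, 23 of 25 were measured, 0 were called higher and 1 lower at their brightest probe, and 21 were well above background in all 6 channels. The called gene was *Ftl1*, the ferritin light chain that stores iron in most cells. Its log2 *Mut*/*WT* ratios were -0.94, -0.75 and -0.36 (mean -0.68, SE 0.088, limma adjusted *P* = 0.000172), and the *WT* vs *WT* ratio was 0.06. Without array 1 its mean was -0.56, under the fold minimum. Its call also ended with the dye term, median centring, an offset of 0 and the deposited log ratios (limma adjusted *P* = 0.0745, 0.082, 0.122 and 0.102). In these 4 settings its mean log2 ratio was -0.74, -1.33, -0.69 and -0.72, so the fall itself was no smaller. *Slc25a39*, a mitochondrial carrier, was at 0.20 at its brighter probe (limma adjusted *P* = 0.0115) and at -0.92 at the other (limma adjusted *P* = 5.02e-05), so that its probes differed in direction. The *WT* vs *WT* ratio of the dimmer probe was -0.38. With no fold minimum 13 genes passed the adjusted *P*, 4 higher and 9 lower, where 29.6% of all probes passed and 13.2% were higher. *Slc25a37*, the mitochondrial iron importer of erythroblasts, was at 0.47 (limma adjusted *P* = 7.6e-05). *Slc25a38*, a mitochondrial glycine carrier needed for heme, was at -0.49 (limma adjusted *P* = 0.000146). The second probe of *Slc25a37* was at -0.02 (limma adjusted *P* = 0.772), and the first turned to -0.11 with median centring and was at 0.35 with the dye term (limma adjusted *P* = 0.161). *Slc25a38* had a *WT* vs *WT* ratio of -0.25, and with the dye term it was at -0.24 (limma adjusted *P* = 0.404).

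The list of red cell membrane genes had 19 of 20 measured and 0 called by limma (3 with an unadjusted *P* under 0.05), with a median log2 ratio of -0.0023. In this list 12 genes were well above background in none of the 8 channels, among them *Epb42*, *Sptb*, *Rhag*, *Rhd*, *Kel*, *Ermap*, *Add2*, *Cldn13*, *Icam4* and *Xk*. *Sptb* encodes the beta chain of erythroid spectrin, and *Rhag* and *Rhd* encode proteins of the Rh blood group complex. The 3 genes of the list that were above background in every channel, *Cd47*, *Epb41* and *Slc2a1*, are also expressed in many other cells. Their mean log2 ratios were -0.35, -0.11 and -0.06 (limma adjusted *P* = 0.00109, 0.135 and 0.448). With the dye term *Cd47* was at -0.42 (limma adjusted *P* = 0.127).

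All 22 erythroid factors were measured and 0 were called by limma (11 with an unadjusted *P* under 0.05), and the median log2 ratio was -0.11. *Lmo2*, *Gfi1b*, *Myb*, *Ikzf1* and *Runx1*, factors of blood cell formation, were well above background in none of the 8 channels. Among those above background, *Ldb1*, the bridge protein of the GATA1 complex, was at -0.45 (limma adjusted *P* = 0.000915), and at -0.35 with the dye term (limma adjusted *P* = 0.299). *Zfpm1*, which encodes the GATA1 partner FOG1, was at -0.38 (limma adjusted *P* = 0.000224). Its *WT* vs *WT* ratio was -0.49, and with the dye term its ratio turned to 0.10. *Tcf3*, which encodes the widely expressed E proteins, was at 0.38 (limma adjusted *P* = 0.000998) at its brighter probe, which turned to -0.22 with median centring and was at 0.09 with the dye term (limma adjusted *P* = 0.801). The *WT* vs *WT* ratio of that probe was 0.29. Its other probe was at -0.34 (limma adjusted *P* = 0.00449), so that the probes of this gene differed in direction.

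Of red cell enzymes and maturation genes, 19 of 22 were measured and 0 were called by limma (7 with an unadjusted *P* under 0.05). *Pklr*, *Trim10* and *Nxpe2* were well above background in none of the 8 channels. *Bnip3l*, which clears mitochondria from maturing red cells and acts in other cells too, was at -0.51 (limma adjusted *P* = 3.6e-05), and *Add1* (alpha adducin of the spectrin skeleton) was at -0.50 (limma adjusted *P* = 0.000457). With the dye term they were at -0.29 and -0.39 (limma adjusted *P* = 0.213 and 0.255), and the *WT* vs *WT* ratio of *Bnip3l* was -0.22. Both were lower in *Mut* on each array, and neither passed the fold minimum.

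**Figure D5:**
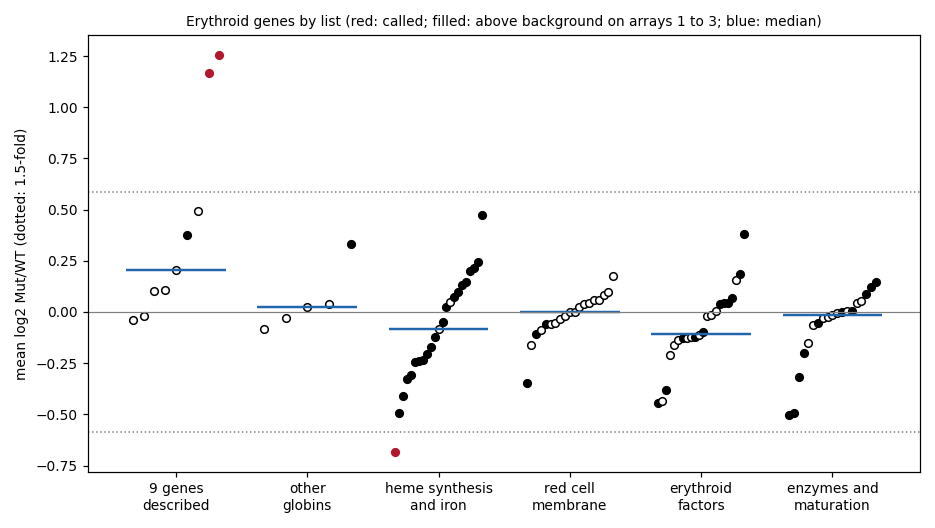
Mean log2 *Mut*/*WT* ratio (vertical axis) of each gene in the described set and in the 5 further erythroid lists (horizontal axis), with called genes in red, filled symbols for genes well above background in all 6 channels of arrays 1 to 3, blue bars for medians and dotted lines at 1.5-fold. *Hba-a1* and *Hbb-bt* stand alone above 1, *Ftl1* is called at -0.68 at the probe plotted, the brightest of each gene, and the medians of the 5 further lists lie between -0.11 and 0.03.

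Markers of other cells that could lie beside red cells in a kidney digest were examined in the same way. Of 10 stroma markers 4 (40%) were called higher in *Mut*, where 0.551% of all probes were, *Col1a1* at 0.89, *Col3a1* at 0.78, and *Pdgfrb* and *Col1a2* at 0.60 each on the log2 scale. With no fold minimum 7 passed the adjusted *P* as higher and 2 as lower, against 29.6% of all probes in either direction and 13.2% higher. The lower ones were *Foxd1* at -0.30 and *Lum* at -0.42 (limma adjusted *P* = 0.00207 and 0.000309). The other 2 probes of *Col1a1* were at 0.33 and -0.02, and that of *Col3a1*, not well above background on arrays 1 to 3, was at 0.0068. The summed level of the stroma list was 13.62 to 13.86 in *Mut* and 13.26 to 13.37 in *WT* on arrays 1 to 3, and 13.47 and 13.64 in *WT* pools 1 and 2 on array 4. The part of the stroma genes in the globin ratios was not tested. In *WT* pool 1 from array 1 to array 4, no stroma marker changed by more than 1.5-fold. The *WT* vs *WT* ratios of the 4 called genes were 0.43 for *Col1a1*, 0.27 for *Col3a1*, 0.18 for *Pdgfrb* and 0.17 for *Col1a2*. They had the same sign as the *Mut*/*WT* ratios, and the 4 calls were not examined with the dye term. At *Col1a1* the level of *WT* pool 2 on array 4 was 10.68, against means of 10.85 in *Mut* and 9.97 in *WT* on arrays 1 to 3.

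Markers of the cells of blood and of its vessels were examined too. No endothelial marker of 10, macrophage marker of 11, mast cell marker of 8 or megakaryocyte marker of 11 was called by limma (unadjusted *P* under 0.05 in 2, 7, 2 and 3, where 40.6% of all probes had it). The summed endothelial level was 10.41 to 10.44 in *Mut* and 10.45 to 10.49 in *WT* on arrays 1 to 3, and 10.40 and 10.45 in *WT* pools 1 and 2 on array 4. The summed macrophage level was 10.28 to 10.32 in *Mut* and 10.36 to 10.42 in *WT*, and on array 4 it was 10.25 and 10.21, below all others. The summed mast cell level was 9.42 to 9.45 in *Mut*, 9.34 to 9.39 in *WT* and 9.47 and 9.40 on array 4. The megakaryocyte level was 9.80 to 9.89, 9.82 to 9.89, and 9.87 and 9.80. *Pecam1* and *Tie1* of endothelium, *Ptprc* of all leukocytes, 5 mast cell markers (*Cpa3*, *Tpsb2*, *Mcpt4*, *Ms4a2*, *Fcer1a*) and 7 megakaryocyte markers (*Ppbp*, *Itga2b*, *Gp1ba*, *Gp9*, *Gp5*, *Vwf*, *Clec1b*) were well above background in none of the 8 channels. The summed level of nephron progenitor markers was 14.70 to 14.80 in *Mut*, 14.85 to 14.94 in *WT*, and 14.88 and 14.77 in *WT* pools 1 and 2 on array 4. In that list *Meox1* and *Osr1* were called lower at a further probe, at -0.75 and -0.66 (limma adjusted *P* = 4.43e-06 and 0.00074).

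Genes with a profile across the 8 channels like that of the globins were then listed. The reference profile was the mean of *Hba-a1*, *Hbb-bt* and *Hbb-y*, each centred on its own mean, and likeness was the root mean square distance to it on the log2 scale, over 12505 probes with a symbol that were well above background in all 8 channels. A flat profile has a distance of 0.475. The nearest 5 genes were *Sct* (secretin, a gut hormone) at 0.103, *Ecm1* (an extracellular matrix protein) at 0.111, *H1f5* (a linker histone) at 0.119, *Gria4* (a glutamate receptor subunit) at 0.122 and *Emid1* at 0.131. The *Hbb-bt* probes lay at 0.073 to 0.156, *Hba-a1* at 0.128 and *Hbb-y* at 0.231. All 3 genes helped to make the profile, and *Hbb-y* lay farther from it than any of the 5.

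These genes were picked for nearness to a profile that is high in *Mut* and on array 4, so their ratios and their order of samples follow from the choice and are given as a description. Their mean log2 *Mut*/*WT* ratios were 0.70 to 1.01. For *Sct* the levels were 10.57, 10.56 and 10.44 in *Mut*, 9.66, 9.77 and 9.63 in *WT* on arrays 1 to 3, and 10.48 and 10.43 in *WT* pools 1 and 2 on array 4. The nearness of a gene to the globins here describes 8 channels on 1 slide.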

How the data were processed

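Sorted *Six2*-positive cells were measured on 4 Agilent mouse arrays in dual colour, with 45018 spots per array, 43379 of them not controls. For each array the authors deposited a scan extracted with Agilent Feature Extraction 10.7.3.1 (per the file headers), with the linear intensity of each spot and of its background in both dyes, not normalized. The authors also deposited the log10 ratio of red over green, background-subtracted and dye-normalized by that program. It was used as an alternative, and the series' value table of the same log10 ratios was not used. Values from GeneSpring GX, which the methods name, were not analysed here.

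Median intensities were corrected with normexp (offset 50), which compresses the ratios of dim probes, and normalized by loess within each array. Control spots and outlier spots (122 to 162 per array) were left out, spots of a probe were averaged, and ratios were turned to Cy3 over Cy5. Channel levels followed Aquantile normalization between arrays. Ratios of arrays 1 to 3 were tested against 0 with limma 3.58.1 (R 4.3.3). *P* values were adjusted over 41166 probes by the Benjamini-Hochberg method, and probes were called at adjusted *P* under 0.05 and over 1.5-fold. They measure the spread between 3 pairs of pools. On simulated data for this comparison (41166 probes, 200 changed by 1 on the log2 scale) it recovered 175 (87.5%) with 1 false call. The simulated noise was independent between arrays and centred on 0, with no dye effect. Its false calls therefore do not measure those of real arrays on which dye and genotype coincide. The number of arrays limits the precision.

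The pools of 1 array share a number in the labels. Pearson correlations between their deviations from the genotype means, taken across probes, were 0.388 for array 1, 0.431 for array 2 and 0.32 for array 3, above the limit of 0.1 in each, so the pairing was kept. Slide could not be tested as a batch, since all arrays share 1.

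Symbols came from a RefSeq gene table (GRCm38.p6) through the array's accessions, for 22951 of 41174 probes (55.7%). Its build is not that of the array's design, so positions are not given, and sequences of probes were not used here. Among the listed symbols without a match were *Hba-a2*, *Hbb-bs*, *Hbb-b1*, *Hbb-b2*, *Hbb-bh2*, *Hbb-bh0*, *Flvcr1*, *Gypc*, *Ahsp*, *Trim58*, *Ell2*, *Csf1r*, *Cd68*, *Emr1* and *Gp6*. Older symbols were not merged with current ones, so some of these may name a gene that was measured under another symbol. Where several probes measured a gene, the one with the highest mean signal stands for it.

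The 9 genes and the lists were chosen with earlier results of these data known. Named were all probes of the 9 genes, from each further list the called genes and the 3 with the largest absolute ratio above background in all 6 channels, from marker lists the called genes (up to 3, with *Col1a2*, *Foxd1*, *Lum*, *Meox1*, *Osr1* and, of the heme list, *Slc25a39* named in addition after their values were seen) and those above background in none of the 8 channels, and the 5 nearest profiles. List genes named beyond that rule for lying above background in none of the 8 channels were also chosen after their values were seen. A summed level is the log2 of the summed linear values of a list's probes. The results of a few genes that this rule names are not reported here. Alternatives covered the values, offset, centring, outlier spots, dim probes, a dye term, unpaired channels, left-out arrays, the methods' *t*-test, the fold minimum and the probe of a gene. A comparison with *WT* pool 2 in the same dye was added after the data were seen.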

Additional observations from a re-analysis of the deposited data

How the results depend on the processing

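The number of the 9 genes that were higher in *Mut* was 7, and it was 4 when dim probes were left out (only those that passed the filter) and 2 in the comparison with *WT* pool 2 in the same dye, added after the data were seen. It was 7 to 9 under the other alternatives. The number of the 9 genes called was 2, and it was 0 with an offset of 0, with median centring and with the methods' *t*-test after Benjamini-Hochberg adjustment, 5 without a fold minimum (all higher in *Mut*, where 13.2% of all probes were called higher), and 2 to 3 with an array left out. No probe of the array was called under those 3 settings, where 11257, 9289 and 9996 probes had an unadjusted *P* under 0.05.

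The number of other erythroid genes called was 1, and it was 0 with an offset of 0, median centring, the dye term and the methods' *t*-test with or without adjustment, 2 with an offset of 16, 28 without a fold minimum and 0 to 2 with an array left out. The 0 came without array 1 and the 2 without array 3. With the deposited log ratios the count was 1, but *Ftl1* was not the gene called. With median centring *Slc25a37* turned to -0.11 and *Tcf3* to -0.22, and with the dye term *Slc2a1* turned to 0.029 and *Zfpm1* to 0.10. The cause was not tested.

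Without the block of array pairs, with channels unpaired, the 3 counts were 7, 2 and 1, as with it. Over all probes 27.4% of calls were higher in *Mut*, against 55% of 2705 with the deposited log ratios and 45.2% of 323 with the dye term. *Hba-a1*, *Hbb-bt*, *Hbb-y* and *Alas2* kept their direction in 12 of 12 other ways of processing arrays 1 to 3, with log2 ratios of 0.54 to 1.39, 0.60 to 1.28, 0.38 to 2.45 and 0.28 to 0.98. *Hba-x* and *Klf1* kept it in 11 of 11, *Slc4a1* in 10 of 11, and *Gata1* and *Hbb-bh1* in 9 of 11. Within these counts, keeping outlier spots, leaving out dim probes and unpairing channels changed no ratio but that of *Gata1* with outlier spots kept. The median over probes cannot change a gene with 1 probe. These counts leave out the comparison with *WT* pool 2 in the same dye, where *Hba-x* (-0.09), *Hbb-y* (-0.11), *Alas2* (-0.05), *Slc4a1* (-0.10) and *Klf1* (-0.026) were lower in *Mut*. Signal near background limits *Hba-x*, *Hbb-y*, *Hbb-bh1*, *Gata1*, *Klf1* and *Slc4a1*.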

Other observations

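Of the 13 probes that were more than 2-fold higher in *Mut*, 5 were the adult globin probes, and 6 had no gene symbol here. In *WT* pool 1, array 4 was higher than array 1 by 0.83 to 1.44 at the probes of *Hba-a1* and *Hbb-bt*. Among the 6 unnamed probes that difference was 1.55 at A_52_P208681, 0.84 at A_51_P287698 and 0.48 at A_52_P412796. It was -0.01 at A_51_P323880, -0.24 at A_52_P662577 and -0.31 at A_52_P527944. Their mean log2 *Mut*/*WT* ratios ranged from 1.02 to 1.33.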
